A study of Mus musculus with 2 samples.

Results

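The genes described here are Trp53, which encodes the transcription factor p53, and 9 genes known as its targets or partners: Mdm2, Mdm4, Cdkn1a, Ccng1, Aen, Bax, Bbc3, Trp53inp1 and Phlda3. The 10 genes were chosen by symbol and looked up among the probe sets that the platform's gene table ties to a single symbol. Of the 10, 8 had such a probe set, among 22180 genes named in this way on the arrays. Trp53 and Bax were not matched and are not analysed here, so no level of p53 mRNA stands beside the levels of its targets.

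The samples were 2 cultures of RAW264.7, an established mouse macrophage cell line, each measured on 1 Affymetrix array. One culture was wildtype and the other carried the label HuR-deficient; how HuR was disrupted, and in how many clones, was not stated in the sources used here. HuR is an RNA-binding protein, encoded by Elavl1, that attaches to AU-rich and U-rich mRNA sequences. Both cultures had been transfected with high molecular weight poly(I:C), a double-stranded RNA that mimics viral RNA, in a lipid reagent (Lipofectamine 2000) for 8 hours at a labelled concentration of 1 mg/ml. Both cultures were stimulated, so the values give neither the response to poly(I:C) nor the response to DNA damage. With 1 array per group there is no replicate error and no test between the conditions. All differences below are log2 signals, HuR-deficient-labelled array minus wildtype array, and "higher" and "lower" refer to these 2 arrays only.

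p53 is a transcription factor that stressed or DNA-damaged cells stabilise, and it switches on genes that stop the cell cycle, start cell death or repair DNA. Its level is held down by MDM2, the ubiquitin ligase that marks p53 for degradation, and by MDM4, a relative of MDM2 that binds p53 and blocks its activity. Mdm2 is itself a p53 target, so the pair p53 and MDM2 forms a negative feedback loop. HuR has been described in other cells as binding the mRNAs of p53, of MDM2 and of p21, the product of Cdkn1a.

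Some promoters of these genes hold a sequence that the choice by symbol did not use, and the stretches below show it for the 4 measured genes that have it. The p53 half-site is a 10-base consensus equal to its own reverse complement, and p53 binds pairs of such half-sites. It was searched as an exact match in windows from 250 bases before to 50 bases after each RefSeq start site (RefSeq sequences, build GRCm38.p6). Of the 10 genes, 9 had a window in the table, and 6 of the 9 held at least 1 half-site: Trp53, Mdm2, Cdkn1a, Ccng1, Aen and Bax. By window, 7 of 14 held a half-site, against 8.36% of all 32851 windows, with 1 Aen match counted in 2 windows. The genes were chosen as known p53 targets or partners, so a higher share is not an independent finding. Over all 27025 genes of the table the share with a half-site was 9.55%, and over 34 further p53 targets in the table it was 23.5% (8 genes). Mdm4, Bbc3 and Phlda3 had none in their windows, which says only that these letters are not in them. The stretches run 5′ to 3′ on the strand of the gene, with the half-site in capitals and 30 bases on each side:
Mdm2, chr10:117710905-117710974, minus strand: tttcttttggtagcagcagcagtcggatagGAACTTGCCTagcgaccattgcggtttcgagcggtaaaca
Cdkn1a, chr17:29090898-29090967, plus strand: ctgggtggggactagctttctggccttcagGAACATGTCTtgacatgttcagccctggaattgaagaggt
Ccng1, chr11:40755432-40755501, minus strand: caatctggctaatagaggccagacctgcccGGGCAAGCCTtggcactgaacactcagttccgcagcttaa
Aen, chr7:78895907-78895976, plus strand: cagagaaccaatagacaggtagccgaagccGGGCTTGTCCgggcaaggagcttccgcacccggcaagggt
The Mdm2 and Ccng1 matches began 186 and 185 bases before the start site. The Cdkn1a match shown lay in the window of the more upstream of its 2 start sites, 51 bases before it. That window held a further match 73 bases before the start site, and the window of the other start site held none. The Aen match lay in the overlapping windows of both of its start sites, 121 bases before the downstream one. The shorter sequence CATG, which is its own reverse complement and forms the centre of many p53 half-sites including the Cdkn1a match shown, was in 3 of the 14 windows (21.4%; 1 each of Cdkn1a, Bax and Phlda3) and in 61.1% of all windows. A match is a description of the sequence and was not tested as a binding site.

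The 4 measured genes with a half-site did not differ in 1 direction between the arrays. Mdm2 was lower in the HuR-deficient-labelled array, while Cdkn1a, Ccng1 and Aen were higher, and Mdm4 was higher as well. Phlda3 and Bbc3 differed by little, and Trp53inp1 had the same value on both arrays. Bbc3 and Trp53inp1 lay below the signal floor on both arrays. This floor was the median of all named log2 values, 4.38, and a gene passed when the higher of its 2 values reached it. It was passed by 6 of the 8 measured genes and by 11905 of all 22180 genes. Phlda3 passed through its wildtype signal alone.

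**Figure D1:**
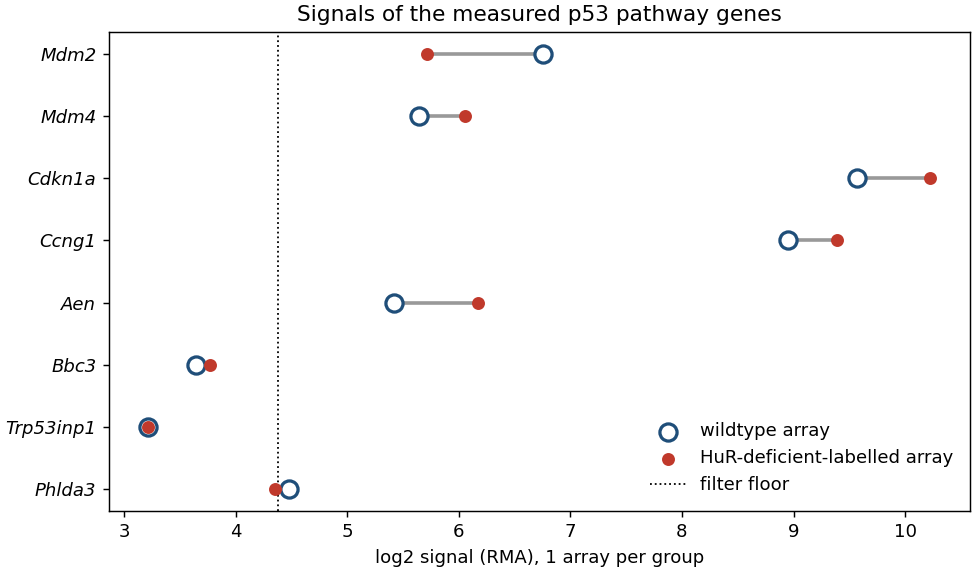
Each row is a gene, and the horizontal axis is the log2 signal after RMA, with an open circle for the wildtype array, a filled point for the HuR-deficient-labelled array and a dotted line at the floor of 4.38. Mdm2 is the gene whose filled point lies clearly to the left of its open circle (6.75 to 5.72); Mdm4, Cdkn1a, Ccng1 and Aen lie to the right, and signals of different genes cannot be ranked because their probes differ.

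Mdm2 and Mdm4, whose products restrain p53, differed in opposite directions. Mdm2 (Entrez Gene 17246) had a log2 signal of 6.75 in wildtype cells and 5.72 under the HuR-deficient label, which is a difference of -1.03, or 2.04-fold. It was the 1 gene of the 6 that reached 2-fold, which 1.99% of the 11905 genes that passed the floor did in either direction (1.11% lower, 0.882% higher). Mdm2 lies just inside this threshold. Of the 500 genes nearest to it in mean signal, 1.8% differed by at least as much, and the robust SD of their differences was 0.32, a spread between genes that does not stand in for a spread between cultures. Mdm4 (Entrez Gene 17248) read 5.64 in wildtype cells and 6.06 under the HuR-deficient label, a difference of 0.42. Such a difference was common: 23.2% of its 500 neighbours in signal showed one at least as large. The differences of the 2 genes were 1.45 log2 units apart, so the ratio of Mdm4 to Mdm2 signal was 2.73-fold higher on the HuR-deficient-labelled array.

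Within the set, the targets that act in growth arrest, Cdkn1a and Ccng1, were both higher. Cdkn1a (Entrez Gene 12575) encodes p21, an inhibitor of cyclin-dependent kinases and the main agent of p53-dependent cell cycle arrest. Its signal was 9.57 in wildtype cells and 10.23 under the HuR-deficient label, a difference of 0.65 or 1.57-fold. Genes at this signal differed little between the arrays, with a robust SD of 0.21 over the 500 nearest, of which 3.6% differed by as much as Cdkn1a. Ccng1 (Entrez Gene 12450), which encodes cyclin G1, a p53-induced protein that takes part in the regulation of MDM2, had signals of 8.95 and 9.39. A difference of at least this size, 0.44, in either direction was found for 15.2% of its 500 neighbours in signal.

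The targets tied to cell death did not form a single pattern. Aen (Entrez Gene 68048), which encodes a p53-induced exonuclease that promotes apoptosis, read 5.42 in wildtype cells and 6.17 under the HuR-deficient label. Its difference of 0.75, or 1.68-fold, was the largest positive one among the 8 genes, and 5.8% of its 500 neighbours in signal showed one at least as large. Bbc3 (Entrez Gene 170770) encodes PUMA, a BH3-only protein that triggers apoptosis by neutralising survival proteins of the BCL-2 family, and it had signals of 3.65 and 3.77. Phlda3 (Entrez Gene 27280), which encodes a pleckstrin-homology protein that restrains AKT signalling, had signals of 4.47 and 4.36, a difference of -0.12. Trp53inp1 (Entrez Gene 60599), whose product takes part in p53-dependent death and autophagy, was at 3.22 on both arrays. Identical values were found for 1788 of the 41345 probe sets (4.32%). At these low signals the arrays do not show whether the mRNA was present, and a lack of difference cannot be read as equal expression.

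The targets did not share a direction. Of the 7 measured targets, 4 had a positive difference, 2 a negative one and 1 none, with a median of 0.12. That median was 0.44 over the 5 targets that passed the floor and 0.55 over the 4 whose higher signal was at least 6. Its size thus depended on the filter. Of the 4, Aen reached 6 on the HuR-deficient-labelled array alone and Mdm2 on the wildtype array alone. Of the 5, 3 were above 0, while Mdm2 and Phlda3 were below. Phlda3 passed through its wildtype signal alone, so Mdm2 was the only lower target above the floor on both arrays. With Mdm4, which was listed as a regulator, 5 of 8 genes were above 0 and the median was 0.27; the median over all 22180 genes was 0.00. At the lower threshold of 1.5-fold, Cdkn1a and Aen counted as higher and Mdm2 as lower, where 5.44% of the 11905 genes were higher and 5.32% lower. The differences of Aen and Mdm2 were 1.78 log2 units apart, those of Cdkn1a and Mdm2 1.69 and those of Ccng1 and Mdm2 1.47. Between Aen and Cdkn1a the gap was 0.09. Such gaps compare genes within the same pair of arrays and have no replicate error.

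**Figure D2:**
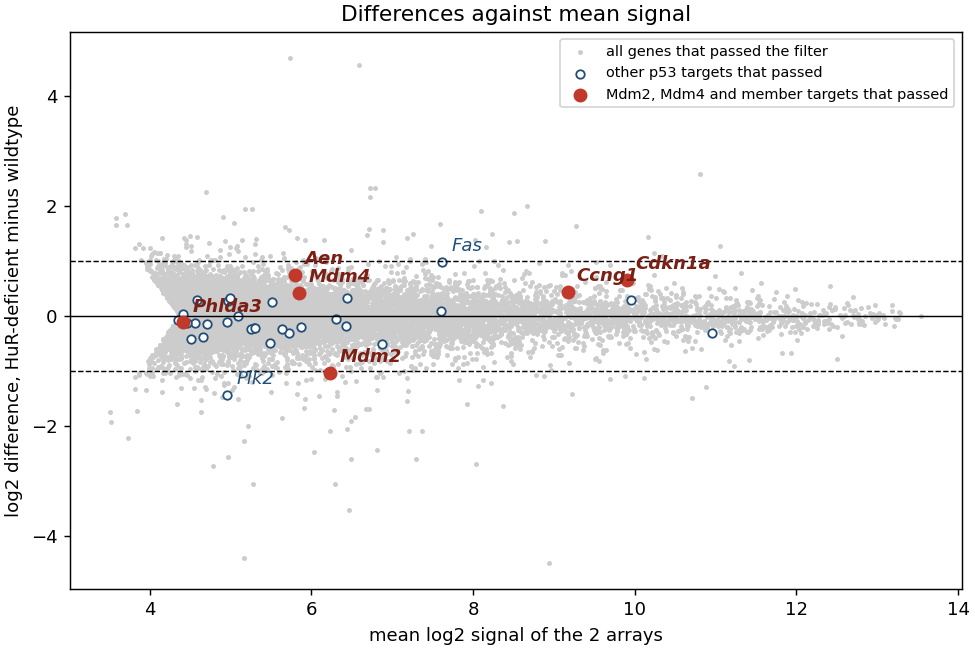
The horizontal axis is the mean log2 signal of the 2 arrays and the vertical axis the log2 difference, HuR-deficient-labelled array minus wildtype, with grey points for the 11905 genes that passed the floor, open circles for 29 further p53 targets, filled circles for the 6 genes of the set and dashed lines at 2-fold. Mdm2 lies on the lower dashed line at -1.03, Aen (0.75) and Cdkn1a (0.65) lie above 0 but inside the dashed lines, and Plk2 (-1.43) is the further target beyond them.

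The protein-coding genes with values most like those of Mdm2 and Aen were found by Euclidean distance over the 2 log2 signals. For Mdm2 the nearest were Pla2g2e (6.72 and 5.72, distance 0.04), Usp2 (6.71 and 5.69) and Nubpl (6.70 and 5.81). For Aen they were Isg20l2 (5.44 and 6.17, distance 0.01), Brms1l (5.45 and 6.14) and Man2b2 (5.39 and 6.21). With 2 arrays this is likeness in a single difference and nothing more. Aen and Isg20l2 encode related exonucleases, and whether their probes share sequence was not tested. The genes next to Mdm2 in RefSeq gene order, among those that passed the floor, differed by -0.16 (Cpsf6) and -0.29 (Nup107), and those beyond them by -0.78 (Lyz1) and -0.20 (Rap1b). Next to Aen, Det1 differed by -0.28 and Isg20, an interferon-induced exonuclease gene of the same family, by 0.40, and beyond them Mrps11 differed by 0.14 and Mfge8 by 0.22.

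Further p53 targets were 45 genes listed from general knowledge, with earlier results of these data known. They leaned below 0, the side of Mdm2 and not that of Cdkn1a, Ccng1 and Aen. Of the 39 measured, 25 were below 0, 10 above and 4 equal on both arrays, with a median of -0.13. Among the 29 that passed the floor, 20 were below 0 and 9 above, where 48.6% of all genes that passed were below 0 and 49.3% above. The 3 targets that passed through a single array, Plk2, Ei24 and Zmat3, were all among the 20 and passed through their wildtype signal. They were counted because of the array on which they were higher, so they do not bear on the lean. Of the 29, 2 reached 1.5-fold (Plk2 and Fas), and 10.8% of all genes that passed did, so the share is no result about these targets. The median of those that passed was -0.13, and it was 0.02 when only genes whose higher signal was at least 6 were kept.

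In the arrest and signalling group, 11 of 13 genes were measured and 8 passed. Of the 11, 7 were below 0 and 3 above, with a median of -0.05, where 10273 of all 22180 genes were below 0. Gadd45a and Gdf15 had no probe set tied to a single symbol. A probe set shared by Gadd45a and another symbol, not counted here, read 6.62 against 5.64, a difference of -0.98. The other shared probe sets of listed further targets differed by 0.00 (Ddb2), -0.24 (Sco2) and 0.31 (Zmat3, below the floor on both arrays). Ddb2, Sco2, Gls2 and Fdxr, listed in the repair and metabolic groups, also had no probe set tied to a single symbol. Plk2, a Polo-like kinase gene induced by p53, was the member at least 2-fold lower (5.67 against 4.24, difference -1.43), with a signal below the floor on the HuR-deficient-labelled array. Its relative Plk3 differed by -0.14. Btg2, an antiproliferative gene, differed by 0.32 and the phosphatase gene Ptprv by 0.29. In the cell death group all 9 genes were measured and 5 passed. Of the 9, 5 were below 0 and 3 above, with a median of -0.21. Counts over so few genes are no result about either group. Fas, which encodes a death receptor, was highest there (7.13 against 8.11, difference 0.97, just short of 2-fold), followed by Siva1 at 0.29. Pmaip1, which encodes the BH3-only protein NOXA, differed by -0.38 and Ei24 by -0.42. Ei24 lay below the floor on the HuR-deficient-labelled array.

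Of the 6 measured genes of DNA repair and nucleotide supply, 4 were below 0, with a median of -0.28 and none at 1.5-fold. Over all 22180 genes, 10273 were below 0, and a count over so few genes is no result about the group. Rrm2b, the p53-induced subunit of ribonucleotide reductase, differed by -0.49 and Pcna, the sliding clamp of DNA polymerases, by -0.31. The translesion polymerase gene Polh, at 0.04, was the member above 0. The metabolic targets had a median of -0.12 over 5 measured genes, from Tigar (-0.23), a fructose bisphosphatase gene, and the AMPK subunit gene Prkab1 (-0.18) to Cpt1c (0.33).

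The last group joined 3 genes whose products act on p53 (Cop1, Rchy1 and Ppm1d) with 5 further targets. It had a median of -0.17 over 8 genes, with 6 below 0 and none at 1.5-fold, where 10273 of all 22180 genes were below 0. Cop1, a ubiquitin ligase gene that like Mdm2 targets p53 for degradation, stood lowest (7.14 against 6.62, difference -0.52). Rchy1, which encodes another p53 ubiquitin ligase (Pirh2), differed by 0.09, and Ppm1d, which encodes the phosphatase WIP1, by -0.21. The long non-coding RNA Pvt1 differed by -0.23 and the epoxide hydrolase gene Ephx1 by 0.25. Trp53cor1, or lincRNA-p21, is a p53-induced non-coding RNA encoded beside Cdkn1a and has been described as bound by HuR in other cells. It had signals of 5.01 and 4.90, a difference of -0.11, on the other side of 0 from Cdkn1a.

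**Figure D3:**
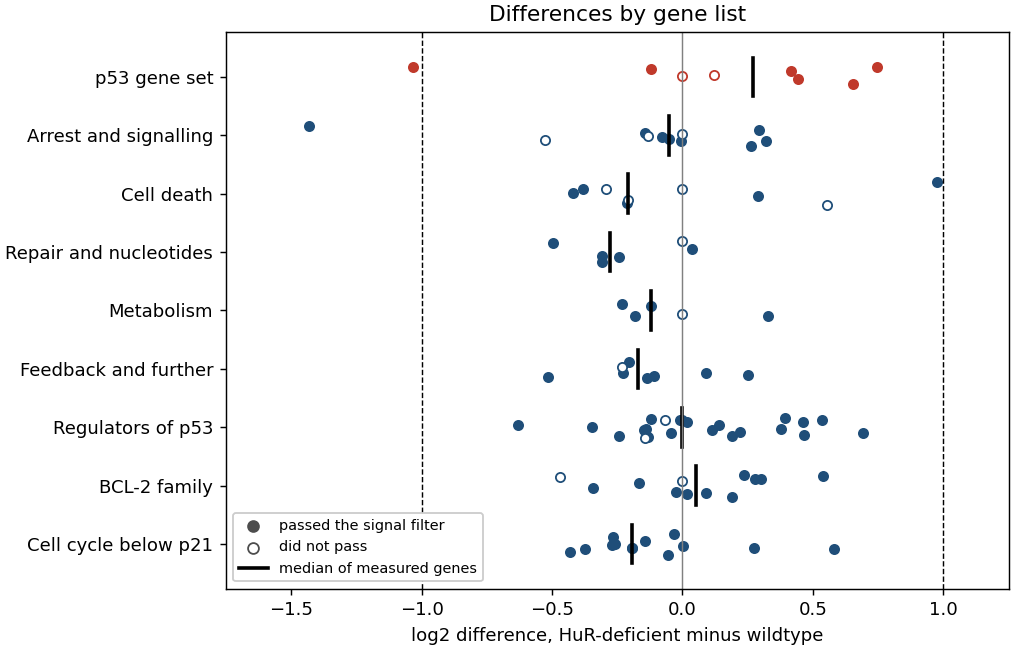
Each row is a gene list and each point a measured gene at its log2 difference, HuR-deficient-labelled array minus wildtype, filled where the gene passed the signal floor and open where it did not, with a black bar at the median of the measured genes and dashed lines at 2-fold (vertical scatter within a row has no meaning). The p53 gene set spans -1.03 to 0.75 with its median at 0.27, and the 5 lists of further targets have medians between -0.28 and -0.05.

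The regulators upstream of p53 were divided evenly. Of 23 measured genes, 11 were above 0, 11 below and 1 equal, with a median of 0.00 and none at 2-fold. Among the 21 that passed, 1 was at least 1.5-fold higher and 1 lower, where 5.44% and 5.32% of all genes that passed were. The highest were Cdkn2a, whose locus encodes the MDM2 inhibitor ARF and the kinase inhibitor p16 (4.73 against 5.42, difference 0.69), and the kinase gene Dyrk2 (0.54; 0.04 by its other, weaker probe set). The checkpoint kinase genes Chek1 (7.34 against 6.71, difference -0.63) and Chek2 (-0.35) were lowest, while Atm and Atr, the kinases that activate them, differed by 0.39 and 0.46. Of the p53 paralogs, Trp73 differed by 0.43 from a wildtype signal below the floor, and Trp63 was below the floor on both arrays with equal values.

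The median absolute difference was 0.21 among the listed BCL-2 family genes that passed, against 0.22 among all genes that passed. It was 0.26 among cell cycle genes that act with or downstream of p21. The 12 listed BCL-2 family genes, among them survival and effector proteins that PUMA acts on, had a median of 0.05 with none at 1.5-fold. Family genes outside the list were not counted, among them Bcl2a1a (0.74), Bcl2a1c (0.34), Bcl2l13 (0.08) and Bcl2l15 (-0.94). Bcl2l11, which encodes the BH3-only protein BIM, differed by 0.54 and Bid by 0.30, while the effector gene Bak1 differed by -0.34 and the survival gene Mcl1 by -0.17. Of 13 measured cell cycle genes, 10 were below 0 and 3 above, with a median of -0.19 and none at 1.5-fold. Among all genes that passed, 48.6% were below 0 and 49.3% above. Cdk2, a main kinase bound by p21, differed by -0.43 and the phosphatase gene Cdc25c by -0.37. Cdk6 (0.58) and Rb1 (0.27) lay on the other side; a second Rb1 probe set, with weaker signal, differed by -0.33.

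Each array held 41345 probe sets, with median log2 signals of 4.08 and 4.10, which RMA brings together. The Pearson r was 0.970 across probe sets, which are not independent replicates. These values do not measure how alike the cultures were, and single genes that passed the floor differed by -4.49 to 4.69. Elavl1 itself did not separate the 2 arrays (7.68 against 7.75, difference 0.07). Whether its probe set lies in the disrupted part was not stated in the sources used here, so the genotype label could not be checked. Of the macrophage markers, 9 of 10 passed the floor, with Cd68 (-0.20) and Itgam (-0.33) lowest and Spi1 (0.33) and Adgre1 (1.57) highest. Among 19 measured markers of other cell types, 7 passed, from Krt18 (-0.61) and Cdh5 (-0.49) to Col1a1 (0.16) and Cd4 (0.26). Krt18 and Cdh5 lay below the floor on the HuR-deficient-labelled array and Cd4 on the wildtype array, and a second, weaker Krt18 probe set differed by 0.38. In such bulk RNA, fewer cells expressing a gene and less RNA per cell cannot be told apart.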

How the data were processed

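RNA from 2 cultures was labelled with biotin and hybridised to 1 Affymetrix array each. The deposited values are log2 signals from the authors' RMA step, which the submitters' processing notes name without a version; that the scale is log2 was inferred from their range. RMA forces the arrays to the same distribution, so a change in total mRNA cannot be seen, and it compresses weak signals. Detection calls and scanner output were not used, and having 2 arrays limits the precision.

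Of the probe sets, 23521 had 1 symbol in the platform's gene table and were used; 1814 had several and 16010 none. Where a gene had several, the probe set with the highest mean was taken. Differences and counts at 2-fold and 1.5-fold were computed with no p-value. The members and the 11 further lists (126 symbols) were chosen with earlier results of these data known. The text names all members, Elavl1, and up to 2 genes at each end of each list among those that passed the floor. It also names the 3 genes nearest to Mdm2 and to Aen. Ppm1d, Trp53cor1, Atm, Atr, Trp63, Gadd45a, Gdf15, Zmat3, Ddb2, Sco2, Gls2, Fdxr, Bcl2a1a, Bcl2a1c, Bcl2l13, Bcl2l15 and the genes next in order were added. The steps were tested on simulated data. The software was pandas 2.3.3, numpy 2.4.6 and statsmodels 0.14.6 under Python 3.11.15, with matplotlib 3.10.9 for figures.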

Additional observations from a re-analysis of the deposited data

How the results depend on the processing

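Differences were recomputed after centring, after loess (span 0.3 over mean signal), after quantile normalising once more, with probe sets averaged, with no floor, with a floor of 6 and with a threshold of 3-fold. The count of genes of the p53 set at least 2-fold lower was 1 in each of these except at 3-fold, where it was 0. Mdm2 ranged from -1.03 to -1.02, Cdkn1a from 0.65 to 0.67, Ccng1 from 0.44 to 0.45 and Mdm4 from 0.42 to 0.43, and Aen stayed at 0.75. Only loess and quantile normalising could move these differences, so the narrow ranges say little. The median used for centring was 0.00, each of these genes had a single probe set, and a floor or threshold leaves a difference unchanged. The median of the set ranged from 0.27 with no filter to 0.44 with a floor of 6. That of its 7 measured targets ranged from 0.12 with no filter to 0.55 with a floor of 6. That of the further targets ranged from -0.17 after loess to 0.02 with a floor of 6. The floor of 6 applied to the higher of the 2 values of a gene. Aen and Mdm4 passed it on the HuR-deficient-labelled array alone and Mdm2 on the wildtype array alone. Of the 11 differences and medians, 9 kept their sign; Trp53inp1 (-0.02 to 0.01) and the median of the further targets did not. No paired analysis was possible because each group holds 1 array. These alternatives do not measure the spread between cultures.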
